A study of Mus musculus with 2 samples.

Results

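The genes described here are the major histocompatibility complex (MHC) and antigen presentation genes of differentiating mouse embryonic stem cells (ESCs). They were every row of the expression data whose symbol starts with H2-, except H2-Ke6, together with 15 named genes of peptide loading and MHC regulation (B2m, Tap1, Tap2, Tapbp, Tapbpl, Psmb8, Psmb9, Psmb10, Nlrc5, Ciita, Cd74, Erap1, Calr, Canx and Pdia3). In all 57 of 24354 genes were members, of which 3 were classical class I genes, 29 non-classical class I genes, 12 class II genes and 13 genes of the class I loading machinery. The poly(A) RNA of 2 cultures of these cells, Diff–CONT and Diff–iKO, was sequenced to ask how the remodeler Ino80 bears on gene expression during mesodermal differentiation. By the study's methods both lines came from blastocysts carrying the floxed alleles Ino80 2f/2f, and only the iKO line also carried ROSA26-CreER, a tamoxifen-activated recombinase expressed from a ubiquitous locus. The sample labels call the control genotype WT and the other Ino80 knockout. Both cultures formed embryoid bodies, which attached on day 4 and were then kept for 7 days in medium with serum, BMP4 and 0.5 µM 4-OHTM, the drug that activates CreER. Each library was 1 culture of 1 line, so differences between lines, cultures and genotypes cannot be told apart. The strain and H2 haplotype of the lines are not given in the sources used here.

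MHC class I molecules are heavy chains that pair with β2-microglobulin (B2m) and present peptides from the cytosol at the surface of most cells. The peptides are cut by the proteasome, carried into the endoplasmic reticulum by the TAP transporter, trimmed there, and loaded with the help of tapasin, calreticulin, calnexin and Pdia3. Class II molecules present peptides from endosomes, are typical of leukocytes and depend on the invariant chain Cd74 and the coactivator Ciita, whereas Nlrc5 is the coactivator of class I genes. Pluripotent cells are known for low levels of surface MHC class I.

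Values are FPKM, a count of sequenced fragments scaled for transcript length and library size, so levels of different genes can be compared. Where a pair of values is given, that of Diff–CONT comes before that of the Diff–iKO-labelled library. Ino80 itself was listed at 8.90 FPKM in Diff–CONT and 10.3 FPKM in the Diff–iKO-labelled library. This value covers the whole gene and does not resolve its deleted part, so it does not check the labels, and every direction refers to the library by its label. The PCR genotyping and the qRT-PCR of Ino80 that the methods describe were not analysed here. Fragments were recovered from the steps of the FPKM values at about 30.2M for Diff–CONT and 22.55M for the Diff–iKO-labelled library, and the 95% intervals given below rest on them. They are exact (Clopper-Pearson) intervals on the log2 ratio that cover counting error only. With 1 library per condition there is no replicate check and no test of the conditions, and a smaller share of a cell type and less RNA per cell cannot be told apart.

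The presentation genes ranged from chaperones at 823 FPKM to class II genes listed at 0. Among the 57 members, 30 reached an FPKM of 1 in a library, 27 did not, and 8 were listed at 0 in both libraries. A gene was counted as changed at a fold change (FC) of at least 2 with FPKM of at least 2 in at least 1 library. Of the 25 members with that FPKM, 1 was higher and 8 were lower in the Diff–iKO-labelled library. With 0.1 added to each FPKM the counts were 1 and 6, as Cd74 (-0.98) and H2-T23 (-0.99) then lay inside the cut-off. Over all 12376 genes with that FPKM, 6.73% were higher and 8.39% lower. The higher gene was H2-M5. The lower genes were H2-Q4, H2-T9, H2-T23, H2-K2, H2-Q7, H2-Ab1, Cd74 and Psmb8. For 7 of the 9 the FPKM reached 2 in only 1 library, so that only H2-Q4 and H2-T9 were past the cut-off with FPKM of at least 2 in both. Of the 25 members with FPKM of at least 2 in a library, 24 have a counting interval. It lay above 0 for 9 and below 0 for 11 of these 24. Among all 12257 such genes it lay above 0 for 38.8% and below 0 for 39.1%. Intervals of members under that FPKM are not in these counts. The median log2 ratio over the 26 members whose mean FPKM was 1 or more, with 0.1 added to each value, was -0.03, and over the 13145 genes of that level it was -0.01. The sign of the members' median turned with the filter, since it was -0.24 over all members above 0 in a library and 0.30 over those whose mean FPKM reached 5.

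**Figure D1:**
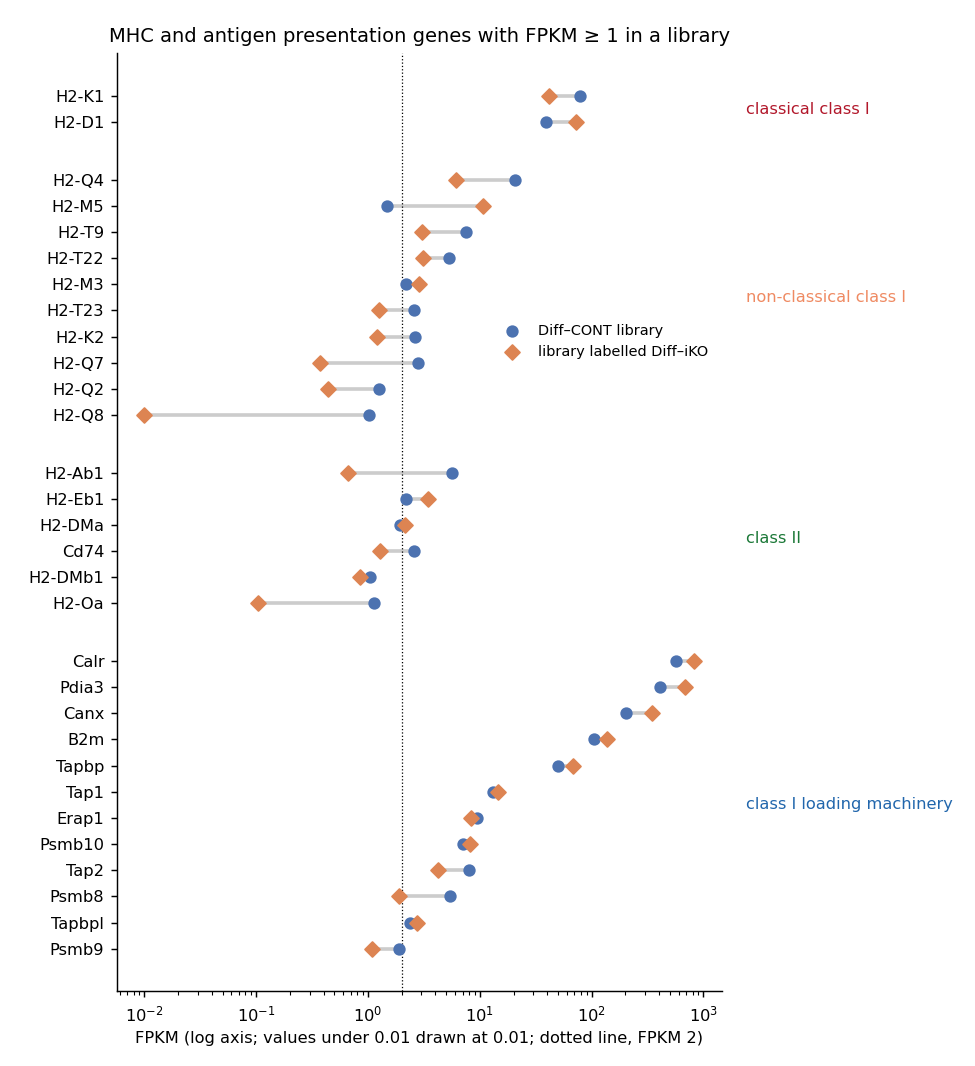
FPKM of the 30 members with FPKM of at least 1 in a library, on a log axis, with circles for the Diff–CONT library and diamonds for the Diff–iKO-labelled library, ordered within each group by mean level. The chaperones of the loading machinery sit highest, H2-K1 and H2-D1 exchange places, and most non-classical genes have the diamond to the left of the circle with H2-M5 as the clear exception.

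The classical class I genes H2-K1 and H2-D1, which encode the heavy chains that present peptides to CD8 T cells, had log2 ratios of opposite sign and exchanged rank. H2-K1 (GRCm38 chr17:33996017-34000347, minus strand) was at 79.3 FPKM in Diff–CONT and 41.4 FPKM in the Diff–iKO-labelled library. Its log2 ratio was -0.94 (interval -1.03 to -0.84, from 3282 and 1281 fragments). H2-D1 (chr17:35262730-35267499, plus strand) was at 39.1 FPKM and 72.3 FPKM. Its log2 ratio was 0.89 (interval 0.81 to 0.97), so neither gene was past the cut-off on the deposited scale and both intervals excluded 0. With both libraries scaled to the same sum of FPKM, H2-K1 passed the cut-off at -1.03. Scaled by the median of ratios or to the same upper quartile (shifts of -0.006 and 0.018), it stayed inside the cut-off. The summed FPKM of the pair was 118 in Diff–CONT and 114 in the Diff–iKO-labelled library, and H2-K1 made up 67.0% and 36.4% of it. The third classical gene, H2-L, was near 0 in both libraries (3.83e-05 and 2.65e-05 FPKM). The annotation used here does not hold H2-L, so no position or interval is given for it.

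The 2 heavy chain genes share parts of their sequence, which bears on how fragments were assigned between them. Among all runs of 50 bases in the annotated transcripts of H2-K1, 9.63% also occurred in another gene and 4.08% in H2-D1. For H2-D1 the shares were 12.8% in any other gene and 5.44% in H2-K1. How fragments of such stretches were divided is not given in the sources used here, and its part in the opposite values was not tested.

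The promoters of the pair are shown because the log2 ratios of the pair differ in sign while much of their upstream sequence is shared. Each window runs from 250 bases before to 50 bases after the start of the RefSeq transcript (GRCm38.p6), 5′ to 3′ on the strand of the gene. Capitals mark matches on either strand to the κB site GGGATTCCC of the class I enhancer A, to the letters AANNGAAA that lie in the elements bound by interferon regulatory factors, and to the CCAAT box, which NF-Y binds. The motifs were chosen after values of these data were seen.
H2-K1 promoter, chr17:34000298-34000597, minus strand: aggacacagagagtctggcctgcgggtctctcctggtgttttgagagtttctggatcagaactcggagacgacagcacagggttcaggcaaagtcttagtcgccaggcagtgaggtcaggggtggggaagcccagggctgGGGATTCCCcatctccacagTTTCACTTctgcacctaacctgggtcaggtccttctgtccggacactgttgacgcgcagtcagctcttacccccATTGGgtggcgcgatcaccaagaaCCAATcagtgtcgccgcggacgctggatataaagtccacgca
H2-D1 promoter, chr17:35262844-35263143, plus strand: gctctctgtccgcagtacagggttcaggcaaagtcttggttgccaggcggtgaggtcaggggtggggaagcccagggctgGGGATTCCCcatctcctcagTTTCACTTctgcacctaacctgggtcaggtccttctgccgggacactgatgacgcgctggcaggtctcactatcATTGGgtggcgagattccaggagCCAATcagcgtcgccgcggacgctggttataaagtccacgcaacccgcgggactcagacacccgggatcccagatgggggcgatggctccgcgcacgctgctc
In a global alignment 214 of the 300 bases (71.3%) were identical. Over all pairs of class I windows this share ran from 48.7% for H2-Q2 with H2-M3 to 92.7% for H2-M10.3 with H2-M10.5. Both windows held the κB letters and, downstream of them, the run TTTCACTT, which matches AANNGAAA on the reverse strand, followed by a reverse and a forward CCAAT. The κB letters occurred in 0.353% of the 32851 promoter windows in the reference and in those of 4 of the 40 members that have a window, namely H2-K1, H2-D1, H2-Q6 and H2-Q7. The CCAAT letters occurred in 34 of these 40 members and in 37.4% of all windows. The interferon factor letters occurred in 21 of the 40 and in 23.9% of all windows. These are matches of letters and not sites shown to be bound. Only these spellings were searched, so a window without a match may hold another form of the site.

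The non-classical class I genes, which include ligands of natural killer cell receptors and presenters of specialised peptides, mostly had lower values in the Diff–iKO-labelled library among those with a mean FPKM of 1 or more. Of the 29 genes, 10 reached FPKM of 1 in a library and 8 reached FPKM of 2, of which 5 were lower and 1 was higher past the cut-off. The median log2 ratio over the 8 genes whose mean FPKM was 1 or more was -1.02, and over all those above 0 in a library it was -0.48. Summed over all 29 genes, FPKM was 49.9 in Diff–CONT and 31.6 in the Diff–iKO-labelled library.

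The H2-Q genes were the most abundant non-classical family in Diff–CONT. H2-Q4 (chr17:35379617-35385290, plus strand), which encodes a Qb-1 heavy chain, was the most abundant non-classical gene of the Diff–CONT library at 20.5 FPKM and stood at 6.10 FPKM in the Diff–iKO-labelled library. Its log2 ratio was -1.75 (interval -1.97 to -1.54, from 989 and 219 fragments). H2-Q7, which encodes a Qa-2 antigen, was at 2.79 FPKM and 0.369 FPKM, a log2 ratio of -2.92 (interval -4.14 to -1.83). H2-Q2 was at 1.24 FPKM and 0.439 FPKM, with a log2 ratio of -1.50 (interval -2.55 to -0.45), and stayed under the FPKM minimum. H2-Q8 was at 1.01 FPKM in Diff–CONT and near 0 (0.000396 FPKM) in the Diff–iKO-labelled library. The other 5 H2-Q genes were below 1 FPKM in both libraries, and among them H2-Q6 (near 0 and 0.335 FPKM) and H2-Q9 (0.00536 and 0.137 FPKM) had the higher value in the Diff–iKO-labelled library. Transcripts of this family are near-identical in places, with 36.4% of the runs of 50 bases of H2-Q5, 32.0% of H2-Q6, 26.4% of H2-Q7 and 21.8% of H2-Q4 also present in another gene. Summing the family removes that uncertainty between its own members, and the sum over the 9 H2-Q genes was 26.7 FPKM in Diff–CONT and 7.87 FPKM in the Diff–iKO-labelled library. The 4 genes H2-Q6 to H2-Q9 together were at 3.80 FPKM and 0.842 FPKM.

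The 3 H2-T genes that reached 1 FPKM had lower values as well. H2-T9 was at 7.48 FPKM and 3.01 FPKM, a log2 ratio of -1.31, with no interval because the annotation used here lacks it. H2-T22, whose product is a ligand of γδ T cell receptors, was at 5.25 FPKM and 3.11 FPKM, and its log2 ratio of -0.75 (interval -1.09 to -0.42) stayed under the cut-off. H2-T23, which encodes Qa-1, the ligand of the inhibitory receptor NKG2A, was at 2.59 FPKM and 1.26 FPKM. Its log2 ratio of -1.04 (interval -1.64 to -0.49) was past the cut-off by a small margin, which a pseudocount of 0.1 removed (-0.99). H2-T22 shared 31.2% of its runs of 50 bases with H2-T10, which was at 0.172 FPKM and 0.133 FPKM. The sum over the 6 H2-T genes was 15.6 FPKM in Diff–CONT and 7.70 FPKM in the Diff–iKO-labelled library. H2-K2, a transcribed pseudogene next to H2-K1, was at 2.63 FPKM and 1.21 FPKM, a log2 ratio of -1.12 (interval -1.72 to -0.59).

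Of the H2-M genes, H2-M5 and H2-M3 were detected above 1 FPKM, and both had the higher value in the Diff–iKO-labelled library. H2-M5 (chr17:36984061-36989537, minus strand) was at 1.49 FPKM in Diff–CONT and 10.7 FPKM in the Diff–iKO-labelled library. Its log2 ratio was 2.85 (interval 2.37 to 3.34, from 43.7 and 235 fragments), and it was the only member that was higher past the cut-off. Only 0.886% of its runs of 50 bases occurred in another gene. H2-M3, which presents N-formylated peptides, was at 2.205 FPKM and 2.84 FPKM, a log2 ratio of 0.37 whose interval (-0.11 to 0.81) included 0. Of the other 10 H2-M genes, 6 were listed at 0 in both libraries, and the highest value, that of H2-M10.4, was 0.769 FPKM in the Diff–iKO-labelled library against a listing at 0 in the other. The sum over the 12 H2-M genes was 4.01 FPKM and 14.5 FPKM.

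The windows of the non-classical genes with the highest level in each library, H2-Q4 and H2-M5, follow, chosen after their values were seen, in the same form and with the same capitals.
H2-Q4 promoter, chr17:35379367-35379666, plus strand: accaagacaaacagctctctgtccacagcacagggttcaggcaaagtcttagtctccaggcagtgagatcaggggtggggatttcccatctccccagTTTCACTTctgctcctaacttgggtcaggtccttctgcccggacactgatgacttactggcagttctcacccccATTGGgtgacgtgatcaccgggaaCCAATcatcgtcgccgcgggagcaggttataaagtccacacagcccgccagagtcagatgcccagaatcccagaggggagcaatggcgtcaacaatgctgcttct
H2-M5 promoter, chr17:36989484-36989783, minus strand: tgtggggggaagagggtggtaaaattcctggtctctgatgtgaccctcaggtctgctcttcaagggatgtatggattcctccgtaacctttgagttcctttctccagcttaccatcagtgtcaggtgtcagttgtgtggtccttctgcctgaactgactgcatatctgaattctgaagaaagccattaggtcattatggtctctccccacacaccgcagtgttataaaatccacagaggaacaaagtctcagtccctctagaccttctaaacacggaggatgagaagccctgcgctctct
The window of H2-Q4 was identical to that of H2-D1 at 236 of 300 bases (78.7%) and held TTTCACTT and both CCAAT boxes. The exact κB letters GGGATTCCC were not in it, but upstream of TTTCACTT it reads gggatttccc, a spelling that was not searched. The window of H2-M5 was identical to that of H2-D1 at 173 of 300 bases (57.7%) and to that of H2-Q4 at 173 as well. None of the 3 motifs was in the H2-M5 window, so it carries no capitals. The κB letters were in the windows of H2-Q6 and H2-Q7, and the windows of 12 of the 20 non-classical genes that have one held AANNGAAA.

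**Figure D2:**
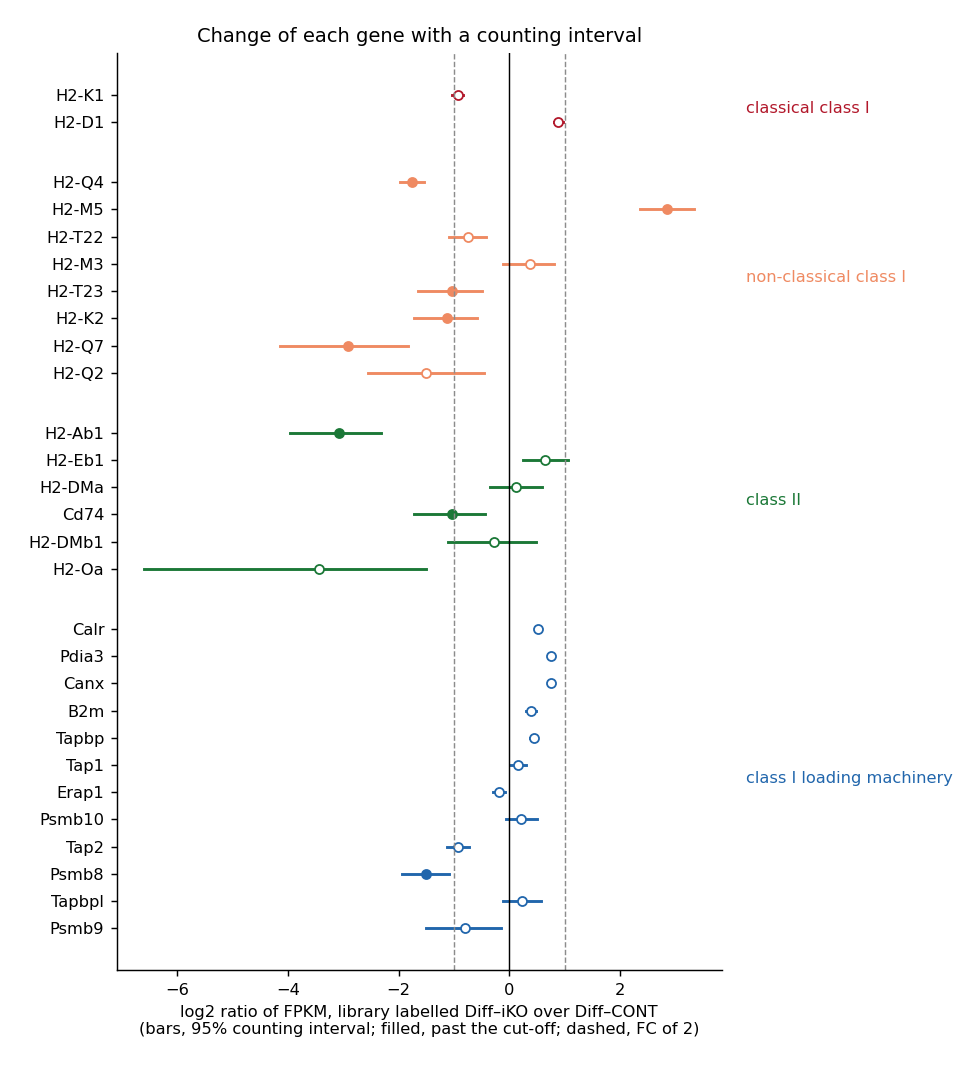
log2 ratio of FPKM, the Diff–iKO-labelled library over Diff–CONT, for the 28 members with FPKM of at least 1 in a library and an annotated length, with bars for the 95% counting interval, filled points past the cut-off and dashed lines at an FC of 2. H2-K1 and H2-D1 lie on opposite sides of 0 just inside the dashed lines, H2-M5 is the only filled point to the right, and the intervals widen for H2-Q7, H2-Ab1 and H2-Oa, which rest on few fragments.

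The class II genes were low in both libraries, and those that reached the FPKM minimum did not move together. H2-Ab1 (chr17:34257689-34269419, plus strand), the β chain of the I-A molecule, was at 5.59 FPKM in Diff–CONT and 0.663 FPKM in the Diff–iKO-labelled library. Its log2 ratio was -3.08 (interval -3.96 to -2.33, from 171 and 15.1 fragments), and none of its runs of 50 bases occurred in another gene. Its partner H2-Aa, the α chain, was at 0.189 FPKM and 0.0504 FPKM, or about 5.29 and 1.06 fragments. The level of the β chain was thus not matched by that of the α chain in either library. H2-Eb1, the β chain of I-E, was at 2.18 FPKM and 3.43 FPKM, a log2 ratio of 0.65 (interval 0.25 to 1.06), while H2-Ea-ps, annotated as a polymorphic pseudogene of its α chain, was listed at 0 in both. Cd74, the invariant chain, was at 2.60 FPKM and 1.27 FPKM. Its log2 ratio of -1.03 (interval -1.73 to -0.43) passed the cut-off by a small margin that a pseudocount of 0.1 removed (-0.98).

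The genes that edit peptides on class II molecules were at 2.12 FPKM or below in both libraries. H2-DMa, a chain of the exchange factor H2-DM, was at 1.95 FPKM and 2.12 FPKM (log2 ratio 0.12, interval -0.35 to 0.60). Its partner H2-DMb1 was at 1.03 FPKM and 0.852 FPKM (log2 ratio -0.28, interval -1.12 to 0.48). Both intervals included 0. H2-Oa, a chain of the inhibitor of H2-DM, was at 1.12 FPKM and 0.103 FPKM, with a log2 ratio of -3.44, but it stayed under the FPKM minimum and rested on 30.1 and 2.07 fragments (interval -6.60 to -1.51). Its partner H2-Ob was at 0.0134 FPKM in Diff–CONT and listed at 0 in the other. The coactivator Ciita, which switches on class II transcription in leukocytes, was listed at 0 in Diff–CONT and at 0.0538 FPKM in the Diff–iKO-labelled library. H2-Eb2 was at 0.0417 FPKM and listed at 0, and H2-DMb2 was listed at 0 in both. In all, 2 of the 4 class II genes with FPKM of at least 2 were lower past the cut-off and 0 were higher, and the median log2 ratio over the 4 genes whose mean FPKM was 1 or more was -0.43.

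The class I loading machinery was the most abundant group and was mostly higher, by less than the cut-off, in the Diff–iKO-labelled library. Of its 13 genes, 11 reached FPKM of 2, 1 was lower past the cut-off (Psmb8), and the median log2 ratio over the 12 genes whose mean FPKM was 1 or more was 0.22. The light chain B2m (chr2:122147686-122153083, plus strand) was at 105 FPKM in Diff–CONT and 137 FPKM in the Diff–iKO-labelled library, a log2 ratio of 0.39 (interval 0.30 to 0.47). Against the summed FPKM of the class I heavy chains, 168 in Diff–CONT and 145 in the Diff–iKO-labelled library, B2m stood at 0.625 and 0.945. The light chain was thus higher and the summed heavy chains lower in the Diff–iKO-labelled library.

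The promoter of B2m, the shared partner of every class I heavy chain, is shown next to that of Tap1, whose window overlaps that of its neighbour Psmb9 on the opposite strand.
B2m promoter, chr2:122147437-122147736, plus strand: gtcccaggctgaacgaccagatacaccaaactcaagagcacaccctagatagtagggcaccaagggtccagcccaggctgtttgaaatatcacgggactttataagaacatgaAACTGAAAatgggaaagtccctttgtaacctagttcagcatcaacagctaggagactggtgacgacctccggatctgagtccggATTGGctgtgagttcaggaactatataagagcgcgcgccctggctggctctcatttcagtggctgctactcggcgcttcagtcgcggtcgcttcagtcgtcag
Tap1 promoter, chr17:34187306-34187605, plus strand: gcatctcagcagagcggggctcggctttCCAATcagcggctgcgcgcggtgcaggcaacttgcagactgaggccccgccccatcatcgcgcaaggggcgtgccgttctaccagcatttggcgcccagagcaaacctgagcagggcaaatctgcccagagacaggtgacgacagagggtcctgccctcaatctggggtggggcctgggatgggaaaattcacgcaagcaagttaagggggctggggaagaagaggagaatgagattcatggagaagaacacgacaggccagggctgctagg
B2m carries AACTGAAA in the forward direction 137 bases before its start and a reverse CCAAT. The exact κB letters GGGATTCCC are not in its window, and other spellings of the κB site were not searched. The Tap1 window holds 1 CCAAT box.

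The chaperones of the endoplasmic reticulum were the highest members, and all had the higher value in the Diff–iKO-labelled library without passing the cut-off. Calr, calreticulin, was at 573 FPKM and 823 FPKM, a log2 ratio of 0.52 (interval 0.50 to 0.54). Pdia3, the oxidoreductase of the loading complex, was at 405 FPKM and 685 FPKM, a log2 ratio of 0.76 (interval 0.74 to 0.78). Canx, calnexin, was at 204 FPKM and 343 FPKM, a log2 ratio of 0.75 (interval 0.72 to 0.77). These chaperones also fold glycoproteins that have no part in antigen presentation. Tapasin, Tapbp, which bridges heavy chains to the TAP transporter, was at 50.3 FPKM and 68.1 FPKM, a log2 ratio of 0.44 (interval 0.37 to 0.50). The tapasin-related editor Tapbpl was at 2.35 FPKM and 2.76 FPKM, and its interval (-0.12 to 0.57) included 0.

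The chains of the TAP transporter had log2 ratios of opposite sign. Tap1 was at 12.99 FPKM in Diff–CONT and 14.5 FPKM in the Diff–iKO-labelled library, a log2 ratio of 0.16 (interval 0.02 to 0.30). Tap2 was at 7.97 FPKM and 4.18 FPKM, a log2 ratio of -0.93 (interval -1.12 to -0.74), and the ratio of Tap1 to Tap2 was 1.63 and 3.47. Tap2 stayed inside the cut-off on the deposited scale and passed it, at -1.02, when both libraries were scaled to the same sum of FPKM. Scaled by the median of ratios it was at -0.94, inside the cut-off, as it was when scaled to the same upper quartile. Erap1, which trims peptides in the endoplasmic reticulum, was at 9.48 FPKM and 8.32 FPKM, a log2 ratio of -0.19 (interval -0.30 to -0.07). The coactivator Nlrc5 was low, at 0.138 FPKM and 0.277 FPKM, or 28.1 and 42.2 fragments.

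The immunoproteasome subunits, which replace the standard catalytic subunits after interferon exposure, did not move together. Psmb8 was at 5.40 FPKM in Diff–CONT and 1.89 FPKM in the Diff–iKO-labelled library, a log2 ratio of -1.51 (interval -1.94 to -1.10). Psmb9 was at 1.88 FPKM and 1.07 FPKM, a log2 ratio of -0.81 (interval -1.51 to -0.16). Psmb10 was at 7.04 FPKM and 8.17 FPKM, a log2 ratio of 0.22 whose interval (-0.06 to 0.49) included 0. Their sum was 14.3 FPKM and 11.1 FPKM, beside 405 FPKM and 475 FPKM for the standard subunits Psmb5, Psmb6 and Psmb7. The immunoproteasome share of these catalytic subunits was 3.42% and 2.29%. Psmb8 and Tap2 overlap the antisense gene Gm20496, H2-Q4 overlaps Gm11131, H2-T22 and H2-T23 overlap A930015D03Rik, and H2-DMa overlaps Brd2. The library kit marks strand, but the strand setting of the counting is not given in the sources used here, so the values of these genes are uncertain. The same holds for the other members with an annotated gene on the opposite strand, which were Tap1 with Psmb9, Tapbp with Gm19412, Erap1 with Cast, Psmb10 with Gm16156, Tapbpl with Vamp1, B2m with Patl2, Pdia3 with Catsper2, Nlrc5 with 9330175E14Rik, H2-Eb1 with Gm20513, H2-Oa with BC051537, Ciita with Dexi, H2-T10 with BC023719, and H2-T24 with A930015D03Rik. Overlaps on the same strand, which a strand setting does not separate, were those of Tapbp with Zbtb22, H2-DMa with CR974462.3, H2-T10 with Gm7030, Cd74 with Mir5107 and Nlrc5 with Mir7072.

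**Figure D3:**
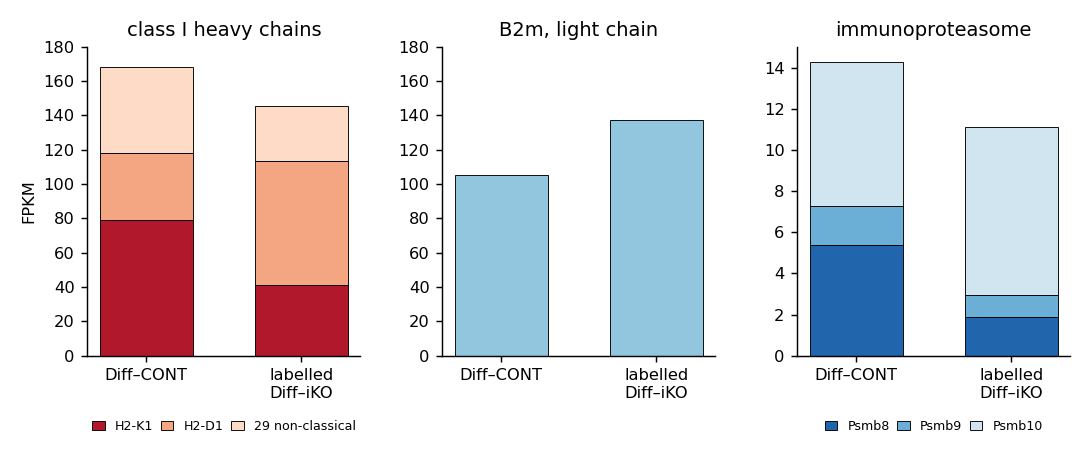
FPKM, from 0, of the class I heavy chains (H2-K1, H2-D1 and the 29 non-classical genes stacked), of B2m and of the immunoproteasome subunits (Psmb8, Psmb9 and Psmb10 stacked) in the 2 libraries. The heavy-chain stack is 168 in Diff–CONT and 145 in the Diff–iKO-labelled library with the H2-K1 part smaller and the H2-D1 part larger, B2m is at 105 and 137, and Psmb10 makes up most of the smaller immunoproteasome stack.

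Most H2 genes lie together on chromosome 17, and the genes between them were compared with them. The interval from H2-K2 to H2-M2 (chr17:33974659-37483552) held 191 matched genes, 42 of them members and 149 not. Of the 15 members there with FPKM of at least 2, 1 was higher and 6 were lower past the cut-off, and the median log2 ratio over the 16 whose mean FPKM was 1 or more was -0.83. Of the 76 other genes of the interval with FPKM of at least 2, 9 were higher and 6 were lower, and the median over 80 was 0.17. The pluripotency factor gene Pou5f1, which lies between the H2-Q and H2-T genes, was at 60.8 FPKM and 247 FPKM. On the side of H2-M5, the neighbouring imprinting factor gene Zfp57 was at 60.02 FPKM and 104 FPKM, and 2410137M14Rik was at 0.540 FPKM and 2.16 FPKM. H2-D1 was higher while H2-Q4 and H2-Q7, the next members along the chromosome with a mean FPKM above 1, were lower.

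**Figure D4:**
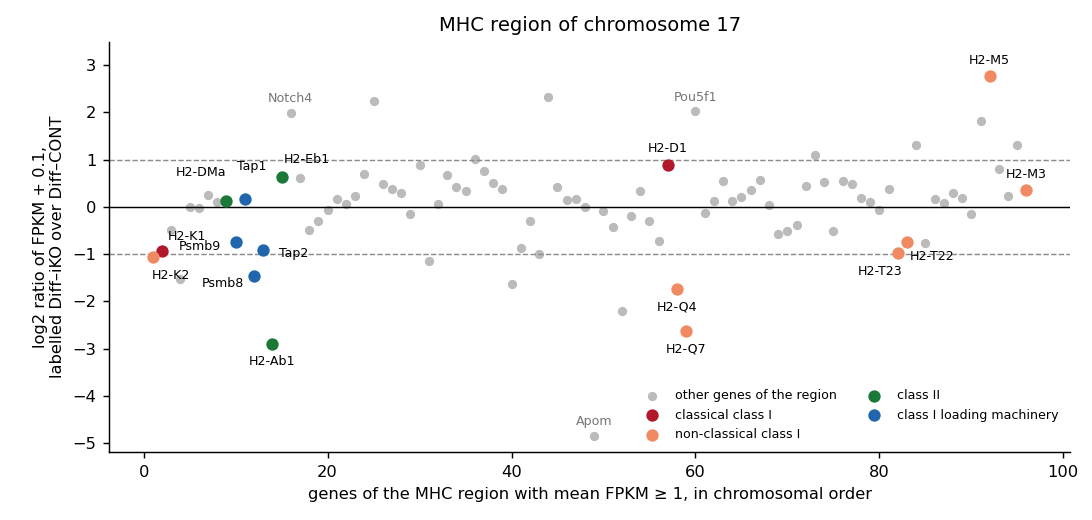
log2 ratio of FPKM + 0.1 for genes of the MHC region whose mean FPKM was 1 or more, set in chromosomal order without a distance scale, members in colour and other genes in grey, with dashed lines at an FC of 2. The members lie mostly below 0 (median -0.83) and the other genes on both sides of it (median 0.17), with H2-M5 near the right end as the highest point.

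Genes that work with the members were taken from lists, each given by its counts and median log2 ratio beside the median of -0.01 over all genes. Of 25 transcription factors and interferon signalling genes with FPKM of at least 2, 0 were past the cut-off in either direction and the median was -0.10. The highest mean FPKM was that of Jak1 (27.4 and 35.3 FPKM), followed by Stat3 (31.0 and 31.4 FPKM). The interferon receptor gene Ifnar2 was at 22.03 FPKM and 19.01 FPKM. The NF-Y subunit Nfya was at 22.4 FPKM and 18.01 FPKM. Irf1, an interferon regulatory factor of class I genes, was at 21.4 FPKM and 16.4 FPKM. The class II regulators Rfx5 (5.999 and 5.72 FPKM), Rfxank (6.46 and 6.29 FPKM) and Rfxap (7.20 and 4.06 FPKM) were present in both libraries.

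Of the 17 genes of the constitutive proteasome and its activators, 0 were past the cut-off, with a median of 0.27. The activator subunits Psme1 (74.99 and 68.4 FPKM) and Psme2 (72.3 and 59.4 FPKM) were the ones with a lower value, and the most abundant were Psma7 (143 and 216 FPKM), Psmb7 (157 and 203 FPKM) and Psmb4 (142 and 213 FPKM). Of the 12 genes of peptide trimming and folding, only Uggt1, a glycoprotein folding sensor, was past the cut-off, at 38.3 FPKM and 82.8 FPKM, and the median was 0.41. The chaperones Hsp90b1 (633 and 833 FPKM), Hspa5 (527 and 767 FPKM) and Pdia6 (335 and 452 FPKM) were its most abundant genes. Of 7 endosomal processing genes with FPKM of at least 2, the cathepsin Ctsd (461 and 1170 FPKM) and the thiol reductase Ifi30 (79.7 and 171 FPKM) were higher, and the median over the 7 was 0.54. Ctss, the cathepsin that removes Cd74 from class II molecules in leukocytes, was at 0.0568 FPKM and 0.114 FPKM.

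Class I-like genes outside the H2 symbols held changes both ways. Mr1, which presents vitamin B metabolites, was at 3.90 FPKM and 0.653 FPKM, and the protein C receptor gene Procr was at 4.22 FPKM and 9.73 FPKM, the 2 of 4 genes with FPKM of at least 2 that were past the cut-off. The lipid presenter Cd1d1 was at 2.63 FPKM and 1.91 FPKM, and the median of the list was -0.31, which turned to 0.48 over those whose mean FPKM reached 5. Of 3 NKG2D ligand genes with FPKM of at least 2, 0 were past the cut-off, and the median over 4 genes was 0.46.

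Markers of the cell types that the cultures could hold also differed between the libraries. Of 17 leukocyte markers, Cd68 (10.5 and 27.1 FPKM), Csf1r (2.91 and 12.8 FPKM) and Laptm5 (2.33 and 13.3 FPKM) were higher past the cut-off, and the other 14 were below 1 FPKM in both libraries. The defining marker Ptprc was at 0.0734 FPKM and 0.00893 FPKM, Tyrobp was at 0.351 FPKM and listed at 0, and C1qa was listed at 0 in both. The summed level of the list was 18.2 FPKM and 54.9 FPKM, most of it from Cd68, Csf1r and Laptm5. The median log2 ratio was 2.10 over these 3 genes and -0.14 over all markers above 0 in a library, among which Ptprc, Tyrobp, Lyz2 (0.497 and 0.0511 FPKM), Fcer1g (0.565 and 0.188 FPKM) and Itgam (0.126 and 0.0695 FPKM) had the lower value in the Diff–iKO-labelled library, as H2-Ab1 and Cd74 did. Of 12 endothelial markers 6 were lower and 2 were higher (Pecam1 and Eng), with a summed level of 131 FPKM and 160 FPKM and a median of -1.03, which was -0.20 over those whose mean FPKM reached 5. Of 12 mesenchyme markers 6 were lower and 0 higher, with a summed level of 2557 FPKM and 2290 FPKM and a median of -0.996. Of 12 pluripotent ESC markers 10 were higher and 1 lower (Lin28a), with a summed level of 595 FPKM and 3081 FPKM and a median of 2.16. Of 11 trophoblast markers with FPKM of at least 2, 5 were higher and 3 lower, with a summed level of 1068 FPKM and 1464 FPKM over the 12 and a median of 0.50. The part of these cell types in the values of the presentation genes was not tested.

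**Figure D5:**
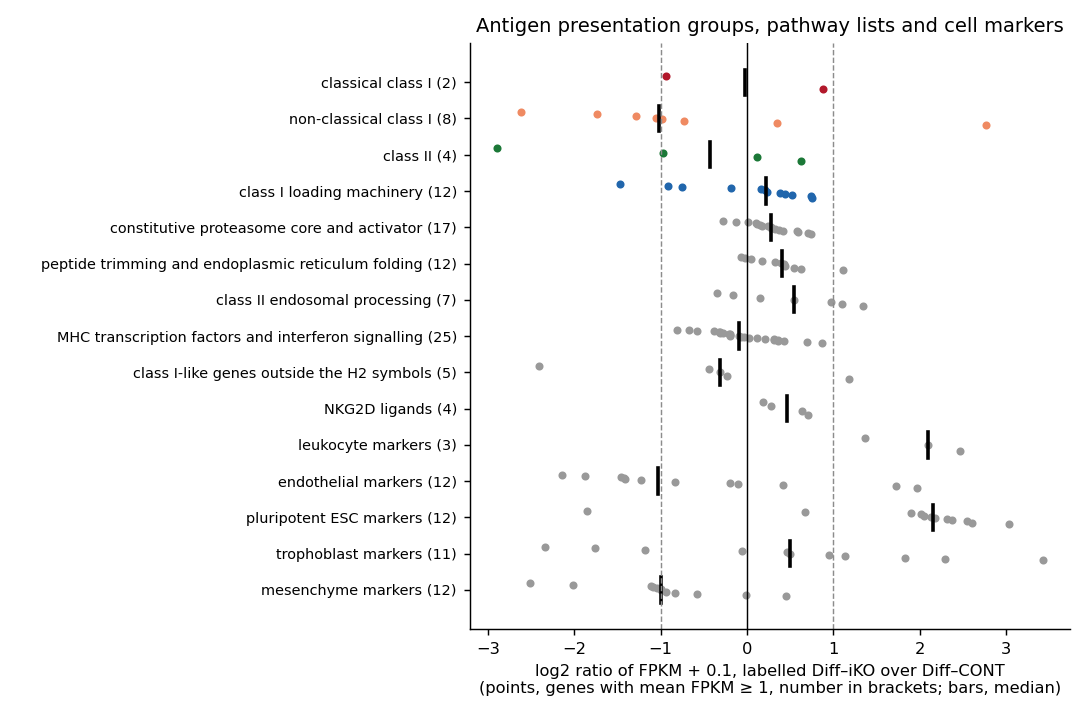
log2 ratio of FPKM + 0.1 for the genes whose mean FPKM was 1 or more in each member group, pathway list and marker list, the number of genes in brackets, points for genes and bars for medians. The non-classical class I median lies at -1.02, those of the endothelial and mesenchyme markers at -1.03 and -0.996, the loading machinery (0.22) near the constitutive proteasome (0.27), and the pluripotent markers at 2.16.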

How the data were processed

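Poly(A) RNA-seq of 1 Diff–CONT and 1 Diff–iKO culture used a stranded kit and read pairs. The FPKM values deposited by the authors cover 24354 genes. The methods and the submitters' processing notes name STAR 2.7.9a, mm10 and Cuffquant and Cuffnorm of Cufflinks 2.2.1, but the annotation and the strand setting are not given in the sources used here. Columns were assigned by their names, and 0 other columns were present.

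The log2 ratio was taken without a pseudocount. The cut-off was FC ≥ 2 and FPKM ≥ 2 in at least 1 library. Medians used a pseudocount of 0.1 and genes whose mean FPKM was 1 or more, which understates changes of low genes. Members with FPKM of at least 1 in a library were named. Genes of the other lists were named by level, call or role, and not all are printed. The members and lists were chosen with earlier results of these data known.

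Fragments per gene were recovered from the steps of FPKM in single-transcript genes of at least 1000 bases, with a mean fragment of 200 bases. Of the low values, 86.6% (Diff–CONT) and 86.5% (Diff–iKO) lay within 0.2 of a whole multiple. For a depth not fitted to the values, 40% would do so by chance. The depth was fitted to these same values, so the share is not an independent check. Fragments are approximate for genes with several transcripts. Genes were placed with GENCODE vM21 (GRCm38), which held 53 of the 57 members, and promoter windows were from RefSeq for 40. The steps were tested on simulated data. Alternatives were other filters, pseudocounts, FC minimums and scalings. Biopython 1.88, Python 3.11.15, matplotlib 3.10.9, numpy 2.4.6, scipy 1.17.1 and pandas 2.3.3 were used.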

Additional observations from a re-analysis of the deposited data

How the results depend on the processing

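No paired analysis was possible because each condition had 1 library and the result comes from no test. The members counted as higher and lower (1 and 8) became 0 and 2 with FPKM of at least 2 in both libraries, and 7 and 19 with no filter on FPKM. The lower count became 4 with FPKM of at least 5, 5 with a pseudocount of 1 and 2 at an FC of 4, and the higher count became 5 at an FC of 1.5. The other genes of the MHC region (9 and 6) became 4 and 3 with FPKM of at least 2 in both libraries, 23 and 13 with no filter, and 5 and 2 at an FC of 4, and the higher count was 4 with FPKM of at least 5 and 14 at an FC of 1.5. Over all genes (833 and 1038) the counts were 488 and 569 with FPKM of at least 2 in both libraries, 2794 and 2761 with no filter, 1846 and 2177 at an FC of 1.5, and 278 and 237 at an FC of 4, and the lower count was 671 with FPKM of at least 5. The classical class I median (-0.02) was -0.12 with each library scaled to the same sum of FPKM, which shifts every log2 ratio by -0.09, and the non-classical median (-1.02) was -0.48 over all members above 0. The median over all members (-0.03) was -0.24 over all above 0 and 0.30 over those whose mean FPKM was at least 5, a level no class II gene reached. The cause was not tested. With a pseudocount of 0.1 the lower members were 6, and with the pseudocount of 1, Cd74 (-0.66), H2-T23 (-0.67) and H2-K2 (-0.72) were no longer past the cut-off. In all 27 values of these counts and medians moved, and 87 stayed within 1.5 times the main count or, for medians, within the median counting interval of the genes, which for all members still took in values of both signs. No symbol occurred more than once, so summing rows changed nothing. Depth limits the genes under about 1 FPKM most.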
